A study of Mus musculus with 12 samples.

Results

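The chemokines *Cxcl1*, *Cxcl2*, *Cxcl5*, *Cxcl12*, *Ppbp*, *Pf4*, *Ccl2*, *Ccl7* and *Cx3cl1* were examined together with the cytokine *Il6* in the mouse heart. These 10 genes were taken by symbol out of 37074 named genes on the array, and all of their 13 probes were kept out of 56605. They were selected on earlier results of the contrasts described here, the log2 differences between groups, in which *Cxcl1* and *Ppbp* had passed the threshold, so their differences between groups, and any calls of them in the fit over all probes, are a description and support nothing by themselves. Chemokines are small secreted proteins that draw leukocytes along a gradient and act through G protein-coupled receptors. *Cxcl1*, *Cxcl2*, *Cxcl5* and *Ppbp* encode ligands that attract neutrophils, *Ccl2* and *Ccl7* encode ligands that attract monocytes, and *Pf4* and *Ppbp* encode proteins stored in the alpha granules of platelets. *Cxcl12* is produced by stromal and endothelial cells, *Cx3cl1* encodes a membrane-bound ligand of the macrophage receptor CX3CR1, and *Il6* encodes an inflammatory cytokine that is often induced together with the chemokines through the transcription factor NF-kB.

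Heart muscle RNA of 12 male C57BL6/J mice aged 5 months was measured, with 1 single-colour Agilent array per mouse and 3 mice in each of 4 groups. The groups were non-diabetic controls (C), controls given pargyline (C+P), mice made diabetic with streptozotocin (D) and diabetic mice given pargyline (D+P). Streptozotocin, which kills the insulin-producing cells of the pancreas, was injected at 50 mg/kg/day on 5 days, and pargyline, an inhibitor of monoamine oxidase, was given at 50 mg/kg/day for 12 weeks, with vehicle in the other mice. The question put to these genes was how diabetes, pargyline and their combination change their transcript level in the heart.

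Values are log2 intensities after quantile normalisation, and tests were run on the 30859 of 56605 probes that the scanner software had flagged positive and significant on 50% or more of each group's arrays. It also marks each spot as well above background or not, and between 23556 and 29231 of 59305 spots per array were. The tissue label was borne out by 8 of 8 cardiomyocyte markers, each well above background on all 12 arrays with log2 intensities between 11.84 and 17.61. The C and D arrays lay on slide 1 and the C+P and D+P arrays on slide 2, so pargyline and slide cannot be told apart, while non-diabetic and diabetic arrays lay in different rows of each slide, so diabetes and row cannot be told apart either. In heart RNA a smaller number of cells of a type and less RNA per cell cannot be told apart.

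Of the 10 genes 5 lie in 1 cluster on chromosome 5 and 2 are neighbours on chromosome 11. In mm9 coordinates, the build of the array, the probes of *Cxcl5* (91190490 to 91190549), *Ppbp* (91198970 to 91199029), *Pf4* (91202275 to 91202334), *Cxcl1* (91322080 to 91322139) and *Cxcl2* (91334534 to 91334593) lie in this order over 144 kb of chromosome 5, with the probes of *Cxcl3* and *Cxcl15*, among others, between *Pf4* and *Cxcl1*. The probes of *Ccl2* (81850650 to 81850709) and *Ccl7* (81860656 to 81860715) lie within 10.1 kb on chromosome 11. Both *Cxcl12* probes lie on chromosome 6, both *Cx3cl1* probes on chromosome 8, and the *Il6* probes on chromosome 5 at 30346159 to 30346218 and 30346367 to 30346426, outside the chemokine cluster. Exon and UTR positions of the probes were not analysed here.

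RefSeq promoter sequences (GRCm38.p6) matched 7 of the 10 genes. The 120 bases just upstream of the start are shown for *Cxcl1* and *Cxcl2*, because only the former was detected, and for *Il6*, *Ppbp* and *Pf4*, to set the inflammatory beside the platelet genes. All 5 are read on the + strand, at chr5:90891125-90891244 for *Cxcl1*, chr5:90903779-90903898 for *Cxcl2*, chr5:30012994-30013113 for *Il6*, chr5:90768398-90768517 for *Ppbp* and chr5:90772315-90772434 for *Pf4*. Capitals mark matches to the NF-kB consensus or to TATAAA on either strand.
Cxcl1: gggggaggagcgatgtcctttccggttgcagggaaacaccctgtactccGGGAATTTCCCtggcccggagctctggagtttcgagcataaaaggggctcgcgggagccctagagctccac
Cxcl2: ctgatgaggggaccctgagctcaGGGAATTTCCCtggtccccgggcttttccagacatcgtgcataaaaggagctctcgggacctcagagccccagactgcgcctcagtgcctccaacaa
Il6: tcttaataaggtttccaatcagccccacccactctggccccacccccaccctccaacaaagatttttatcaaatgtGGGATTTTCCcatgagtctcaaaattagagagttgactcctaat
Ppbp: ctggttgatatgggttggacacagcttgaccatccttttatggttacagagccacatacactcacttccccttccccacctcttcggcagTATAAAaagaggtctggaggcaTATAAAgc
Pf4: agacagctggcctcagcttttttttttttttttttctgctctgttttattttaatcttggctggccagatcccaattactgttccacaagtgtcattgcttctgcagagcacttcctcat
*Cxcl1* and *Cxcl2* held the same 11 letters, GGGAATTTCCC, at 71 to 61 bases before the start of *Cxcl1* and 97 to 87 bases before that of *Cxcl2*. That exact run, which holds 1 overlapping consensus match on each strand, occurred within 250 bases upstream in 0.0426% of 32851 promoters, and the NF-kB consensus in 7.25%. *Il6* held 1 consensus match, GGGATTTTCC, at 44 to 35 bases before the start. TATAAA occurred in 12.4% of the promoters and was found at 30 and 8 bases before the start of *Ppbp*, and neither motif was found upstream of *Pf4* or *Cxcl12*. *Cx3cl1* had TATAAA but no NF-kB match. The motifs were chosen after the sequences had been seen, and a match is a run of letters, not a bound site.

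*Cxcl1*, *Ccl2* and *Ccl7* were highest in C+P, *Ppbp* and *Pf4* were lower in diabetic than in control hearts with and without pargyline, and *Cxcl12* probe 1 was lower in diabetic hearts without pargyline and higher with it. These statements describe the order of the arrays. In D against C 0 of the 10 tested probes passed the threshold, while 22.4% of all tested probes had groups without overlap. *Pf4* and *Cxcl12* passed in no contrast, and D and C of *Cxcl12* probe 1 were separated only by 13.08 against 13.09. The groups of *Cx3cl1* overlapped, and *Cxcl2*, *Cxcl5* and *Il6* were not well above background on any array. Of the 13 probes 5 were well above background on all 12 arrays, 4 on none, and 10 could be tested.

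**Figure D1:**
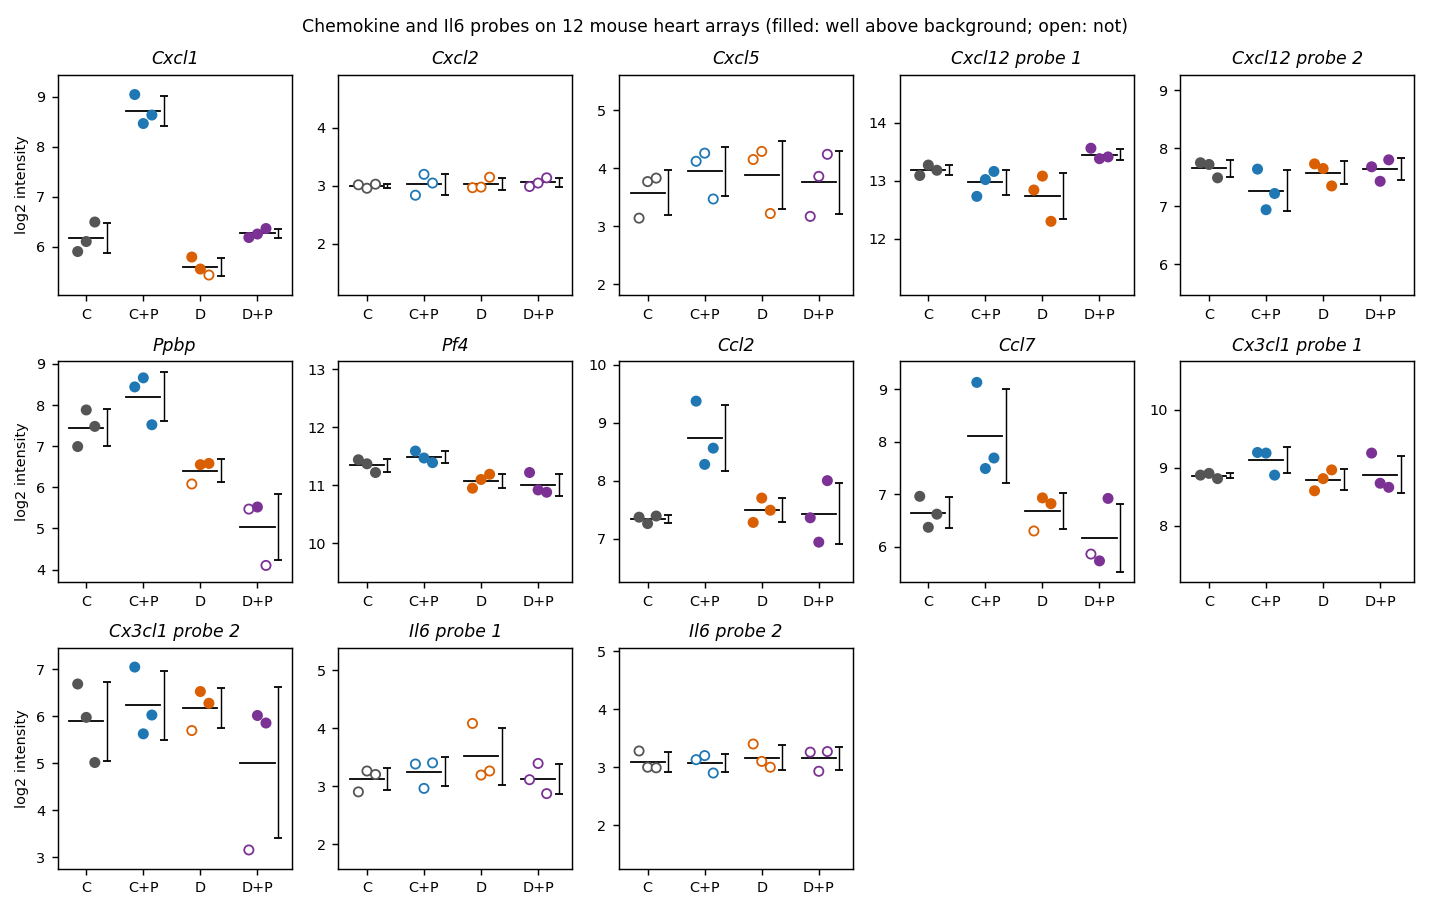
Log2 intensity of the 13 probes on each of the 12 arrays, by group (C, C+P, D, D+P; x axis), with the group mean as a line and the SD as a bar beside it (n = 3). The y axes differ between panels; open points were not well above background. The 3 C+P arrays lie above all others for Cxcl1 (8.46 to 9.04) and Ccl2 (8.28 to 9.37), and Ppbp is lowest on the 3 D+P arrays (4.10 to 5.52).

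*Cxcl1*, a ligand of the neutrophil receptor CXCR2, had log2 intensities of 5.90, 6.10 and 6.49 on the C arrays and 9.04, 8.46 and 8.63 on the C+P arrays. It had 5.79, 5.55 and 5.43 on the D arrays and 6.18, 6.25 and 6.36 on the D+P arrays. The C+P arrays stood above all other arrays, the D arrays were below all others, and C and D+P overlapped. In C+P the mean was 8.71 ± 0.30 against 6.16 ± 0.30 in C (SD, n = 3), a difference of 2.55 log2 (SE 0.20), or 5.84-fold. Among diabetic hearts the difference D+P minus D was 0.68 log2 (SE 0.20), with means of 6.26 ± 0.09 and 5.59 ± 0.18 (SD, n = 3). The difference D minus C was -0.58 log2 (SE 0.20), or 1.49-fold lower, and D+P minus C+P was -2.44 log2 (SE 0.20), or 5.44-fold lower. The difference between these effects of diabetes, the interaction, was -1.87 log2 (SE 0.29). With normexp background correction the difference D minus C shrank to -0.08 log2, D+P minus C+P to -1.62 log2 and D+P minus D to 0.28 log2. Over all alternatives of processing and fit, C+P minus C ran from 1.81 to 2.71 log2. The signal was well above background on 11 of 12 arrays, the exception being D replicate 3.

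*Cxcl2*, which encodes a close relative of CXCL1, was not measured above background: its probe was positive and significant on 0 of 12 arrays. Its log2 intensities ran from 2.84 to 3.20 over all arrays, and the means of the 4 groups lay between 3.00 (C) and 3.06 (D+P). *Cxcl5*, made by epithelial and other tissue cells, was positive on 10 of 12 arrays but well above background on none. Its log2 intensities lay between 3.14 and 4.29, all groups overlapped, and no fold change is given.

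*Ccl2*, the main ligand of the monocyte receptor CCR2, had log2 intensities of 7.37, 7.26 and 7.39 in C and 9.37, 8.28 and 8.56 in C+P. It had 7.28, 7.70 and 7.49 in D and 7.36, 6.94 and 8.0 in D+P. Here too every C+P array was above every other array, while C, D and D+P overlapped. C+P exceeded C by 1.40 log2 (SE 0.31), or 2.64-fold, and D+P minus C+P was -1.30 log2 (SE 0.31), or 2.47-fold lower. Without pargyline, D differed from C by 0.16 log2 (SE 0.31), within the spread of the arrays, and the interaction was -1.46 log2 (SE 0.44).

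*Ccl7*, the neighbouring gene, whose product also binds CCR2, had log2 intensities of 6.96, 6.37 and 6.62 in C and 9.13, 7.49 and 7.69 in C+P. It had 6.30, 6.93 and 6.82 in D and 5.86, 5.73 and 6.92 in D+P. The order of arrays resembled that of *Ccl2*: C+P replicate 1 was the highest array for both genes, and D+P replicate 2 the lowest. C+P exceeded C by 1.46 log2 (SE 0.44), or 2.75-fold (0.94 log2 without C+P replicate 1), and D+P minus C+P was -1.94 log2 (SE 0.44), or 3.83-fold lower. D minus C was 0.04 log2 (SE 0.44) and the interaction -1.98 log2 (SE 0.62). With normexp background correction D+P minus C+P was -1.12 log2 and the interaction -1.18 log2. Its signal was well above background on 10 of 12 arrays. The 3 other tested probes within 100 kb of the pair, those of *Ccl11*, *Ccl12* and *Ccl8*, had C+P minus C differences of -0.35, -0.16 and -0.16 log2.

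*Ppbp*, the precursor of platelet basic protein and CXCL7, had log2 intensities of 6.99, 7.88 and 7.48 in C and 8.44, 8.66 and 7.52 in C+P. It had 6.08, 6.55 and 6.58 in D and 5.47, 5.52 and 4.10 in D+P. All D arrays were below all C arrays, and the D+P arrays were the lowest of the 4 groups, whereas C+P overlapped C. D minus C was -1.05 log2 (SE 0.42), or 2.06-fold lower, and D+P minus C+P was -3.18 log2 (SE 0.42), or 9.06-fold lower. Pargyline went with a difference of 0.76 log2 (SE 0.42) in controls and of -1.38 log2 (SE 0.42) in diabetic hearts, an interaction of -2.13 log2 (SE 0.59). Without D+P replicate 3 the difference D+P minus D was -0.91 log2. Only 2 of the 3 D arrays and 1 of the 3 arrays of D+P had a signal well above background, so the lowest levels are close to the background. With normexp background correction D+P minus C+P was -1.82 log2, D+P minus D -0.60 log2, C+P minus C 0.46 log2 and the interaction -1.06 log2. The probe kept its call in D+P against C+P in only 1 of the 12 fits that left out 1 array, the fit without D+P replicate 1, and its difference then ranged from -3.52 to -2.71 log2.

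*Pf4*, platelet factor 4, also known as CXCL4, moved in the same direction by far less. Its log2 intensities were 11.44, 11.37 and 11.22 on the C arrays and 11.59, 11.47 and 11.39 on the C+P arrays. On the diabetic arrays they were 10.95, 11.10 and 11.19 without and 11.22, 10.92 and 10.88 with pargyline. D lay below C and D+P below C+P without overlap. The differences were -0.26 log2 (D minus C) and -0.47 log2 (D+P minus C+P), and those of pargyline 0.14 log2 in control and -0.07 log2 in diabetic hearts, each with an SE of 0.15. With normexp background correction D minus C was -0.14 log2. The probe was well above background on all 12 arrays.

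*Cxcl12*, the ligand of CXCR4 and of the scavenging receptor ACKR3, has 2 probes. Probe 1 (117131227 to 117131286), assigned to transcript variant 3, had log2 intensities of 13.09, 13.27 and 13.18 in C and 12.73, 13.02 and 13.16 in C+P. It had 12.84, 13.08 and 12.30 in D and 13.56, 13.38 and 13.41 in D+P. D was below C and D+P above C+P, each without overlap, although the highest D array (13.08) and the lowest C array (13.09) were nearly equal. The differences were -0.44 and 0.48 log2 (SE 0.21 each), the interaction was 0.92 log2 (SE 0.29), and D+P exceeded D by 0.71 log2 (SE 0.21), or 1.64-fold. Without D replicate 3 the difference D minus C was -0.22 log2. Probe 2 (117125026 to 117125085), assigned to variant 1, had levels between 6.94 and 7.80, and its groups overlapped in every pair compared. Its interaction was 0.45 log2 (SE 0.29). Endothelial markers also had a higher mean level in diabetic hearts under pargyline: the mean log2 level of all 8, each well above background on all 12 arrays, was 11.05 to 11.40 in D+P and 10.61 to 11.02 in C+P. It was 10.80 to 11.11 (C) and 10.93 to 11.08 (D) in hearts without pargyline. Their summed intensity was 62600 to 77300 (D+P), 36200 to 57300 (C+P), 60200 to 69600 (D) and 50400 to 56200 (C), so that D was above C, unlike *Cxcl12* probe 1. In D+P against C+P 7 of the 8 differences were positive and 0 passed (limma), 2 having an unadjusted p under 0.05, where 50% of all tested probes were higher and 7.5% had such a p, with *Fabp4* at 0.66 log2 (SE 0.22) and *Vwf* at 0.60 log2 (SE 0.20). Their part in the *Cxcl12* differences was not tested.

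*Cx3cl1*, the membrane-bound chemokine fractalkine, showed no separation of the groups. Probe 1 was well above background on all 12 arrays, with log2 intensities of 8.87, 8.90 and 8.81 on the C arrays, 9.26, 9.25 and 8.87 on the C+P arrays, 8.60, 8.81 and 8.96 on the D arrays, and 9.25, 8.73 and 8.66 on the D+P arrays. Its differences ran from -0.25 log2 (D+P minus C+P) to 0.26 log2 (C+P minus C), each with an SE of 0.19. Probe 2, on another transcript, gave -1.22 log2 (SE 0.72) in D+P against C+P, a value set by D+P replicate 1 at 3.16, since without that array it was -0.30 log2.

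*Il6* was not measured above background in any group. Neither of its 2 probes was positive and significant on any of the 12 arrays, with log2 intensities of 2.87 to 4.08 for probe 1 and 2.90 to 3.40 for probe 2. The array therefore gives an upper limit only, and no difference between groups.

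Counted over the 10 tested probes, 0 passed the threshold (limma, Benjamini-Hochberg adjusted p under 0.05 over all tested probes) in D against C, where 0.00648% of all tested probes did. In D+P against C+P 2 passed, *Cxcl1* and *Ppbp*, both lower, beside 0.0454% of all probes. Averaged over pargyline, the same 2 genes passed, with differences of -1.51 log2 (SE 0.14) and -2.11 log2 (SE 0.30), beside 0.126% of all probes. The averaged call of *Ppbp* was kept in 1 of the 12 fits that left out 1 array, again the fit without D+P replicate 1, and in 7 of 21 alternatives. With the slide as a fixed term, 0 of the 10 passed in this averaged comparison. In C+P against C 1 passed, *Cxcl1*, beside 0.0324% of all probes. None passed in D+P against D (0% of all probes) or in the interaction (0.00648%). Where 0 passed, an unadjusted p under 0.05 was found for 2 of the 10 probes comparing D with C (10.9% of all tested probes), for 3 comparing D+P with D (13.4%) and for 5 in the interaction (7.07%), and the methods' t-test called 0 in both pairwise contrasts. These contrasts chose the members, so nothing is read from the counts. The C+P arrays enter both the pargyline comparison in controls and the diabetes comparison under pargyline, so these are not independent of each other.

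Groups without overlap were more frequent than calls. D and C did not overlap for 4 of the 10 tested probes, all lower in D (*Cxcl1*, *Cxcl12* probe 1, *Ppbp* and *Pf4*), beside 22.4% of all tested probes. D+P and C+P did not overlap for 6, of which *Cxcl12* probe 1 was higher and *Cxcl1*, *Ppbp*, *Pf4*, *Ccl2* and *Ccl7* were lower, beside 13.9%. C+P was above C without overlap for 3, *Cxcl1*, *Ccl2* and *Ccl7*, beside 15.5% in either direction. D+P and D did not overlap for 3, *Cxcl1* and *Cxcl12* probe 1 being higher and *Ppbp* lower, beside 17%.

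**Figure D2:**
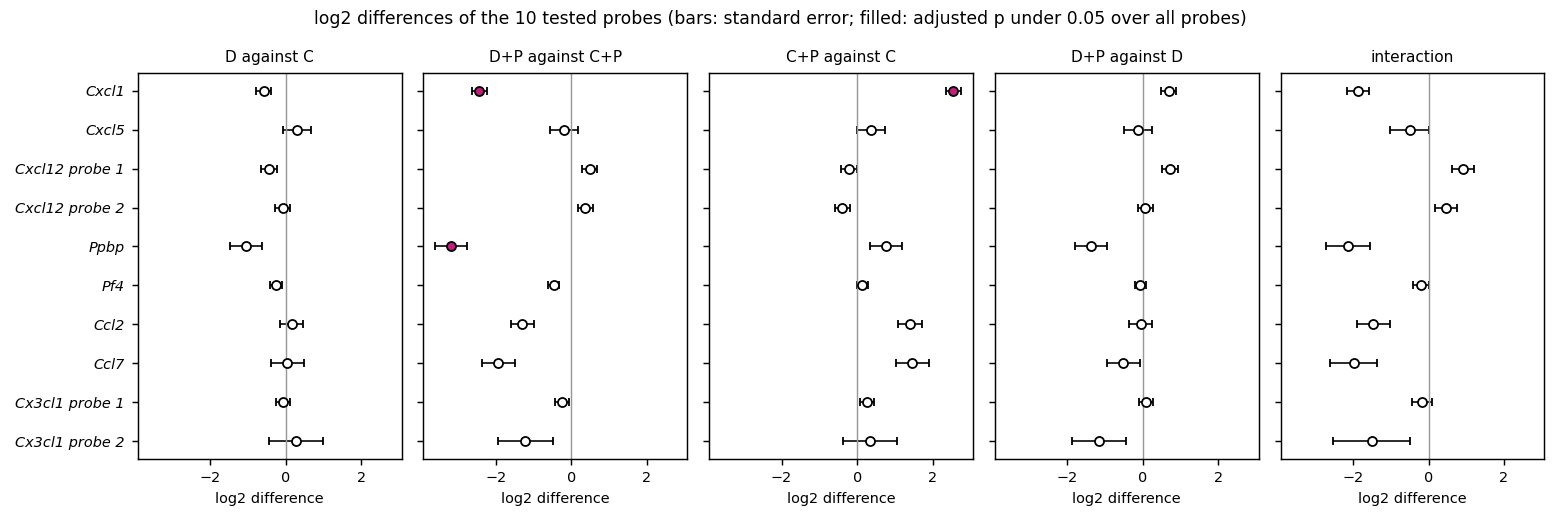
Log2 differences (x axis) of the 10 tested probes (y axis) in 4 contrasts and in the interaction of diabetes and pargyline, with the standard error as a bar. Filled points passed the threshold over all tested probes. Cxcl1 is the filled point at 2.55 for pargyline in controls. For diabetes under pargyline it lies at -2.44 and Ppbp at -3.18.

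An unadjusted p under 0.05, counted below for each gene list, was found for 10.9% of all tested probes when diabetes was compared without pargyline, 7.5% with pargyline and 11.5% averaged over both. For pargyline it was found for 4.5% in controls and 13.4% in diabetic hearts, and for the interaction 7.07%. Of 28 other chemokine ligands 16 were tested and 0 passed in any of the 6 contrasts (limma), with 1 to 3 per contrast at an unadjusted p under 0.05. Their median difference was -0.11 log2 for pargyline in controls and -0.26 log2 for diabetes under pargyline, where the median of all tested probes was -0.01 and 0 log2. *Ccl24*, an eosinophil attractant made by macrophages, had the largest averaged effect of diabetes, -0.87 log2 (SE 0.16, limma adjusted p 0.0858). *Ccl5* differed by -1.06 log2 (SE 0.29, limma adjusted p 0.404) in D+P against C+P. *Cxcl3*, a gene of the same chromosome 5 cluster and related to *Cxcl1*, was not well above background anywhere.

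Of 23 chemokine receptors 11 were tested and 0 passed in any contrast (limma), with 0 to 2 per contrast at an unadjusted p under 0.05. *Cxcr1* and *Cxcr2*, which encode chemokine receptors of neutrophils, CXCR2 being that of CXCL1, were well above background on 0 of 12 arrays. *Ccr2*, which encodes the receptor for CCL2 and CCL7, differed by 0.51 log2 (SE 0.29) in D+P against C+P. *Cx3cr1*, which encodes the fractalkine receptor, differed by -1.20 log2 (SE 0.36, limma adjusted p 0.456) in the same contrast, with levels of 7.04 to 7.88 in C+P and 5.71 to 6.53 in D+P. *Ackr4*, a scavenging receptor gene, differed by 1.55 log2 (SE 0.93) in C+P against C. *Ackr3*, which encodes a receptor for CXCL12, differed by 0.46 log2 (SE 0.16) in C+P against C. *Cxcr4* was well above background on 2 of 3 C, 1 of 3 C+P, 0 of 3 D and 0 of 3 D+P arrays. Its group means lay between 4.59 (D) and 5.24 (C), near background in every group.

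Signalling genes of the interleukin-6 family gave 13 tested genes of 15 and 0 passed in any contrast (limma), with 0 to 3 per contrast at an unadjusted p under 0.05. *Il6ra*, the ligand-binding receptor chain, had an averaged effect of diabetes of -0.41 log2 (SE 0.12), and *Il6st*, the shared signalling chain gp130, of 0.35 log2 (SE 0.14). Of 25 genes of the NF-kB pathway and its inflammatory targets 20 were tested and 0 passed (limma), with 0 to 3 per contrast at an unadjusted p under 0.05. In C+P against C 15 of the 20 differences were positive, with a median of 0.20 log2, where 48.1% of all tested probes were higher and their median was -0.01 log2. For diabetes under pargyline 3 of the 20 were positive (50% of all probes), with a median of -0.27 log2, *Nfkbiz* at -1.36 log2 (SE 0.63) and *Icam1* at -0.81 log2 (SE 0.16, limma adjusted p 0.191). Genes of the list that did not pass the probe filter were not compared. Among the 20 tested the largest pargyline difference in controls was that of *Icam1*, an adhesion molecule of activated endothelium, at 1.07 log2 (SE 0.16, limma adjusted p 0.109). Its levels were 9.40 to 9.71 in C+P and 8.37 to 8.52 in C, without overlap.

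**Figure D3:**
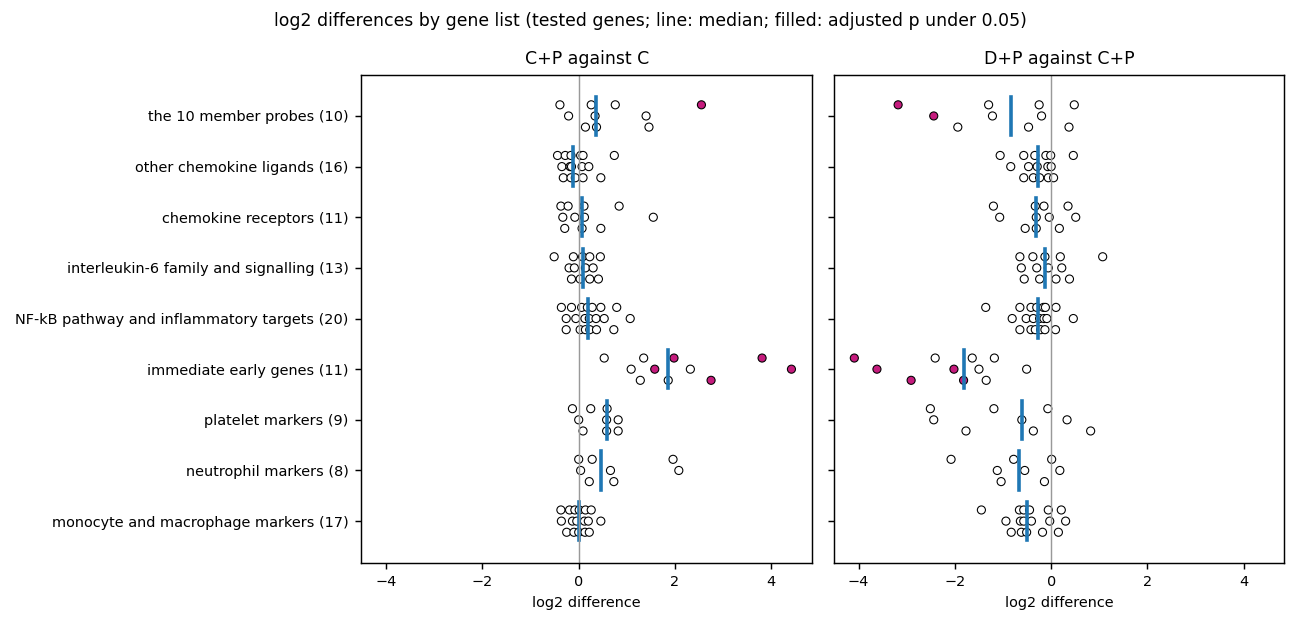
Log2 differences (x axis) for pargyline in controls (C+P against C) and diabetes under pargyline (D+P against C+P), shown for the 10 member probes and for the tested genes of 8 gene lists (y axis, number tested in brackets), with the median as a vertical line. Filled points passed the threshold over all tested probes. The immediate early genes lie to the right in the first panel (median 1.86) and to the left in the second (median -1.82).

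Immediate early genes, which are transcribed within minutes of a stimulus, were high on the same arrays as *Cxcl1*, *Ccl2* and *Ccl7*. The list was chosen with earlier results of these data known, so its counts are a description. All 11 were tested, and 5 rose in C+P against C, beside 0.0324% of all tested probes, with a list median of 1.86 log2 where that of all probes was -0.01 log2. The 5 were *Fos* (4.42 log2, SE 0.47), *Nr4a1* (3.81, SE 0.29), *Fosb* (2.75, SE 0.36), *Ier2* (1.98, SE 0.15) and *Apold1* (1.58 log2), and all 11 differences were positive, where 48.1% of all probes were higher. *Fos* was well above background on 1 of the 3 C arrays and *Fosb* on 2 of them (means 4.78 and 4.95), so the size of their differences depends on values near background. The same 5 fell in D+P against C+P, beside 0.0454% of all probes, where the list median was -1.82 log2 and that of all probes 0 log2. *Fos*, which was not well above background on the D+P arrays, was at least 16-fold lower there (means 5.11 and 9.20, limma adjusted p 0.0198). *Fosb*, likewise not well above background in D+P, was at least 6.05-fold lower (means 4.79 and 7.70, limma adjusted p 0.0244). The mean log2 intensity of the list was 10.02 to 10.38 in C+P, and 7.94 to 8.25 (C), 7.85 to 8.09 (D) and 7.83 to 8.28 (D+P) elsewhere. Its summed intensity was 20800 to 28900 in C+P, and 7430 to 10000 (C), 6960 to 9510 (D) and 8100 to 9570 (D+P) elsewhere. C+P thus stood apart for the list as for *Cxcl1*, and its part in the chemokine differences was not tested.

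Over the 12 arrays the 5 genes outside the group whose levels were most like that of *Cxcl1*, among 14043 genes, were *Ier2* (Pearson r 0.982), *Egr1* (0.980), *Btg2* (0.959), *Fos* (0.957) and *Nr4a1* (0.939). This likeness is a description, in which the 3 C+P arrays lie apart from the other 9. For *Ppbp* the 5 were *Hpn* (0.943), *Gnao1* (0.933), *Abat* (0.932), *Aars2* (0.932) and *Atcay* (0.909), none of which is on the platelet list.

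**Figure D4:**
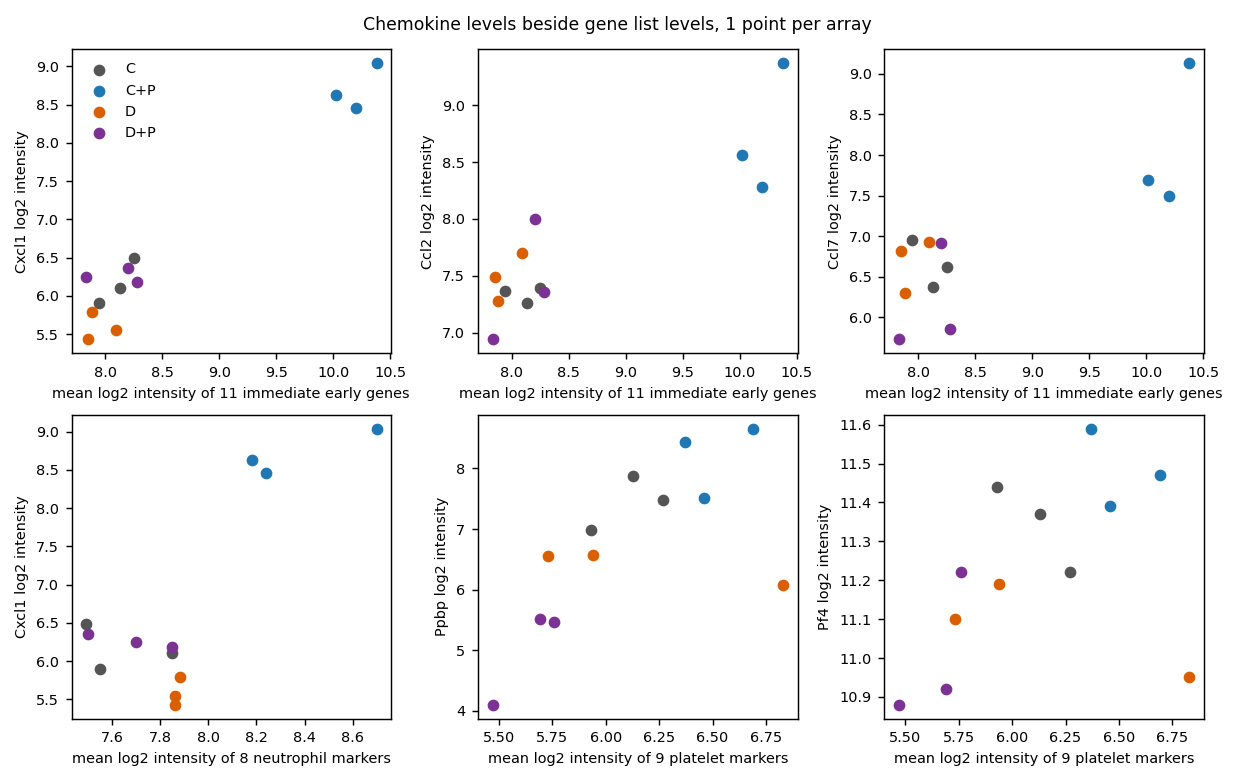
Log2 intensity of Cxcl1, Ccl2, Ccl7, Ppbp and Pf4 (y axes) against the mean log2 intensity of the tested genes of a list (x axes), with 1 point per array coloured by group. In the upper row the 3 C+P arrays lie alone at an immediate early mean of 10.02 to 10.38. In the 2 platelet panels the single D array at the far right is D replicate 1, whose Treml1 level was 11.77.

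Platelet markers were low in heart RNA. Of 17 markers 9 were tested and 0 passed in any contrast (limma), with 0 to 5 per contrast at an unadjusted p under 0.05. The defining markers *Itga2b*, *Gp1ba*, *Gp1bb* and *Gp5* were well above background on 0 of 12 arrays. In D+P compared with C+P, *Gp9*, a subunit of the von Willebrand factor receptor, was at least 3.52-fold lower (means 4.37 and 6.88, limma adjusted p 0.0797). *Clec1b*, the platelet receptor for podoplanin, was at least 2.89-fold lower (means 4.20 and 6.64, limma adjusted p 0.151). *Itgb3*, the integrin chain of the fibrinogen receptor, had levels of 7.25 to 7.68 in C+P and 6.24 to 6.42 in D+P, a difference of -1.19 log2 (SE 0.20, limma adjusted p 0.114). Other markers went the opposite way: *Alox12*, the platelet lipoxygenase, differed by 0.82 log2 (SE 0.27, limma adjusted p 0.537) and *Nbeal2*, needed for alpha granules, by 0.33 log2 (SE 0.17). In D+P against D these were 0.87 log2 and 0.71 log2, the only 2 of the 9 tested differences above 0, where 48.8% of all tested probes were higher. *Treml1*, *Gp9*, *Clec1b* and *Gp6* differed there by -2.29, -1.22, -1.09 and -1.09 log2. Of these *Gp6* was well above background on no array, and *Gp9* and *Clec1b* on none in D+P. The mean log2 level of the 9 markers was 6.37 to 6.69 in C+P and 5.47 to 5.76 in D+P, with 5.93 to 6.27 (C) and 5.73 to 6.83 (D) in untreated hearts. Their summed intensity was 852 to 1130 in C+P, 654 to 712 in D+P, 631 to 753 (C) and 604 to 4120 (D). The wide D range came from *Treml1* on D replicate 1. Without *Treml1* the D sums were 576 to 624 and those of C+P, at 746 to 978, were the highest of the 4 groups. Among red cell markers 4 were tested and 0 passed in any contrast (limma), with 0 to 1 per contrast at an unadjusted p under 0.05. *Slc4a1*, the red cell anion exchanger, differed in the direction of *Ppbp*, by 1.73 log2 (SE 0.30) for pargyline in controls and by -1.94 log2 (SE 0.30, limma adjusted p 0.0797) for diabetes under pargyline. The globin genes *Hbb-b1* and *Hba-a1* and the heme synthesis gene *Alas2*, all well above background on all 12 arrays, differed in the latter by 0.16, -0.02 and -0.21 log2. The summed intensity of the 4 was 126000 to 145000 (C), 114000 to 164000 (C+P), 131000 to 154000 (D) and 129000 to 136000 (D+P), with all groups overlapping. *Pf4* itself was bright, with a mean log2 intensity of 11.23, and was well above background on all 12 arrays. *Itga2b*, *Gp1ba*, *Gp1bb* and *Gp5* were so on none. The part of platelet and other blood RNA in the *Ppbp* and *Pf4* differences was not tested.

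Markers of the leukocytes that these chemokines attract gave no called gene. Of 13 neutrophil markers 8 were tested, 0 passed in any contrast (limma) and 1 to 4 per contrast had an unadjusted p under 0.05. *S100a8* and *S100a9*, which encode the calprotectin subunits, differed by 2.08 log2 (SE 0.72) and 1.96 log2 (SE 0.45) in C+P against C. The mean log2 level of the 8 was 8.18 to 8.70 in C+P, against 7.49 to 7.85 (C), 7.86 to 7.88 (D) and 7.50 to 7.85 (D+P), so C+P was the highest group, as for *Cxcl1*. The sums did not separate the groups in that way: they were 34500 to 49800 in C+P, against 41300 to 45000 (C), 22400 to 37800 (D) and 38700 to 48100 (D+P). The granule genes *Mmp8*, *Mmp9*, *Ngp* and *Ltf* were not well above background on any of the 12 arrays.

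Monocyte and macrophage markers gave 17 tested genes of 18 and 0 passed (limma), with 0 to 10 per contrast at an unadjusted p under 0.05. Averaged over pargyline, where those 10 were found (11.5% of all tested probes), 16 of the 17 differences were below 0, that of *Timd4* rounding to 0 log2. Their median was -0.43 log2, where that of all tested probes was -0.01 log2 and 47.7% of them were higher in diabetic hearts. *Cd163*, a scavenger receptor of resident macrophages, differed by -0.96 log2 (SE 0.19, limma adjusted p 0.110). In C+P against C the list median was 0 log2, whereas *Ccl2* and *Ccl7* differed by 1.40 and 1.46 log2. The mean log2 level of the 17 was 9.43 to 9.82 (C) and 9.44 to 9.80 (C+P), above the 9.08 to 9.31 (D) and 9.05 to 9.30 (D+P) of diabetic hearts without overlap. The summed intensity of the list was 63000 to 77200 (C), 61800 to 68100 (C+P), 45400 to 70100 (D) and 57100 to 69800 (D+P), and these sums overlapped. Without pargyline the list median for diabetes was -0.31 log2, with 1 of the 17 differences positive, beside -0.26 log2 for *Pf4*. Under pargyline the list median was -0.51 log2, with 3 of the 17 positive, beside -0.47 log2 for *Pf4*. The medians of all tested probes were -0.01 and 0 log2. The part of monocytes and macrophages in the chemokine differences, that of *Pf4* included, was not tested. Of 10 lymphocyte markers 7 and of 6 fibroblast markers 6 were tested, and 0 passed in any contrast (limma), with 0 to 2 per contrast of each list at an unadjusted p under 0.05.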

How the data were processed

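Processing followed the single-colour array design. Total RNA (200 ng per mouse) was labelled with Cy3, and the authors extracted spots with Feature Extraction, version 12.0.0.7 per the file headers. The deposited scanner files give background-subtracted spot intensity on a linear scale, not normalised between arrays, with flags of 0 or 1 that the authors' software set for positive and significant, well above background, outlier and saturated spots (0 were saturated). The deposited series table gives quantile-normalised linear intensity for 47757 spots and served as an alternative.

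Here log2 intensity of non-control spots was quantile normalised, outlier spots were set to missing, and spots of a probe were averaged. limma 3.58.1 in R 4.3.3 fitted 1 mean per group over all 12 arrays (8 residual degrees of freedom), with two-sided moderated tests and Benjamini-Hochberg adjustment over 30859 probes. Each array is 1 mouse placed by its labels, and precision is limited by 3 arrays per group. A member was called when its adjusted p was under 0.05. For a probe that no array of a group measured well above background, the fold is a lower bound against the lowest signal well above background on each array. Members, gene lists and tests were chosen with earlier results of these data known. All members were named. Of each list the text names genes that passed and up to 5 with the largest difference in a contrast, on the brightest probe per gene, and *Cxcl3*, *Cxcr1*, *Cxcr2*, *Ccl8*, *Ccl11*, *Ccl12*, *Cxcl15*, *Nbeal2* and undetected markers were named for their relation to the members. All 187 list genes were found by symbol. Likeness to *Cxcl1* and *Ppbp* was Pearson's r on the brightest probe. Motifs were searched with Python 3 in RefSeq promoters. The fit was tested on simulated data for C+P against C. It recovered 22 of 100 probes changed by 1 log2 and 80 of 100 changed by 2 log2, with 8 false calls. A count of 0 passed is therefore not evidence of no change. Alternatives were 75th percentile scaling, normexp (offset 50), the series table, missing values for non-significant spots, other probe filters, trended and weighted fits, a replicate block, the slide as a term, the methods' t-test and leaving out each array. Same-numbered arrays did not deviate together (correlations from -0.20 to 0.20, median 0.03), so replicate numbers were not treated as pairs.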

Additional observations from a re-analysis of the deposited data

Results flagged for a closer look

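*Cxcl12* probe 1 differed in direction between untreated and pargyline-treated hearts. Every D array was below every C array (-0.44 log2), and every D+P array was above every C+P array (0.48 log2). The first of these was -0.22 log2 without D replicate 3, and its groups were separated only by 13.08 against 13.09. The interaction was 0.92 log2 (SE 0.29) and did not pass the threshold over all probes, so the difference between the effects was not established. Probe 2 of the gene had an interaction of 0.45 log2.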

How the results depend on the processing

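None of the 1338 recomputed log2 differences of the members changed from one called direction to the other, 1310 stayed within 1 SD between replicates and 28 moved further. In D+P against C+P, where 2 member probes passed, 1 passed with the filter on probes well above background and 1 with the replicate block, 0 with the methods' t-test under either adjustment, and 1 to 2 when 1 array was left out, the 2 only without D+P replicate 1. Averaged over pargyline, where 2 passed, 1 passed without a filter, with the filter on probes well above background and with the replicate block. With 1 array left out 1 to 2 passed, and with the slide as a fixed term 0. The slide term cannot stand beside the 4 group means, so its 0 does not measure an effect of slide. Array weights gave 3 in the averaged comparison, adding *Pf4* (-0.37 log2, limma adjusted p 0.0208). In C+P against C, where 1 passed, the methods' t-test gave 0. Array weights gave 1 in D against C, 5 in C+P against C (*Cxcl1*, *Ccl2*, *Ccl7* and *Ppbp* higher and *Cxcl12* probe 2 lower) and 1 in the interaction. The replicate block changed no other count. For diabetes under pargyline *Cxcl1* passed in 21 of 23 alternatives and *Ppbp* in 8 of 22, and for pargyline in controls *Cxcl1* passed in 21 of 23. Normexp gave averaged differences of -0.85 log2 for *Cxcl1* and -1.29 log2 for *Ppbp*. The slide as a random block could not be fitted, because slide is contained in the 4 groups. The cause of these shifts was not tested. Probes near background, *Ppbp*, *Ccl7* and *Cx3cl1* probe 2 among them, are limited by their signal over background, and 3 arrays per group limit all of them.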
